A study of Mus musculus with 4 samples.

Results

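The cells described here are liver macrophages chosen by their transcripts of Mmp12, Mmp13, Cd207, Ms4a7 and Cx3cr1, called gated macrophages below. A cell was taken when at least 3 of these 5 genes had at least 1 unique molecular identifier (UMI, a tag that marks 1 captured transcript). It also needed at least 1 UMI of C1qb, at most 1 of Clec4f, at most 1 of Stab2, and none of Cd3e and Cd79a. The rule was met by 134 of 32150 cells, with 9 of 10615 cells in the library S, 92 of 11068 in HFD_sed and 33 of 10467 in HFD_EXE. The rule rests on measured transcripts, so the levels of these 10 genes are given as a description, with no test.

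The study applied droplet-based single-cell RNA sequencing to liver non-parenchymal cells taken from C57BL/6J mice at 30 weeks of age, with or without a high fat diet (HFD) and physical exercise. There was a single library for every group, titled S, E, HFD_sed or HFD_EXE, and these letters are not spelled out. The groups keep their titles here: HFD_sed and HFD_EXE carry the diet in theirs, S does not, and the expression of E was not analysed here. The labels do not give the diet, the exercise protocol, their length, the sex of the mice or how many mice gave a library. With 1 library a group, the group and the library cannot be told apart, and the intervals given for levels and ratios cover counting error only.

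Liver macrophages include the resident Kupffer cells of the sinusoids, which carry the lectin Clec4f and the phosphatidylserine receptor Timd4. A separate population lies under the liver capsule, lacks those receptors, and is known for Cx3cr1 and for high MHC class II. Mmp12 encodes macrophage elastase and Mmp13 a collagenase, both of which cleave extracellular matrix. Cd207 encodes langerin, a lectin best known from Langerhans cells of the skin. Cx3cr1 is the receptor for the chemokine fractalkine, and Ms4a7 is a membrane protein of macrophages often used to mark cells that derive from monocytes.

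The matrices held 84666844, 63456399 and 60901242 UMIs in S, HFD_sed and HFD_EXE, and quality filtering kept 91.0%, 94.2% and 92.8% of their barcodes. Gated macrophages were deep cells, with a median of 12612, 12533 and 10280.0 UMIs, against 6306, 4272 and 4975 over all kept cells. The protocol states 5000 to 6000 captured cells a sample, and the matrices held 11660, 11752 and 11280.0 barcodes. A deeper cell has more chances to show 3 markers, so depth moves with membership. Pairs of libraries shared 29 to 46 barcodes, and 0 barcodes of gated macrophages were shared. A doublet caller marked 403, 328 and 295 cells (3.80%, 2.96% and 2.82%), and 0 of the 134 gated macrophages were among them.

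The macrophage part of the label held in the data, and the capsule part could not be measured from dissociated cells. Adgre1, the gene of the macrophage antigen F4/80, had a UMI in 9 of 9, 87 of 92 and 32 of 33 gated macrophages. The receptor gene Csf1r had one in 9, 89 and 33 cells. Csf1r stood at 1162, 1423 and 1339 CPM (counts-per-million of the summed UMIs of the cells) in S, HFD_sed and HFD_EXE, beside 1753, 1549.6 and 1279 CPM in Kupffer cells. The Kupffer genes Timd4, Marco and Cd163 lay between 2.55 and 20.2 CPM in each library. Other Kupffer genes were not low in HFD_sed. Cd5l was at 50.5, 2250.0 and 225 CPM in S, HFD_sed and HFD_EXE, and Slc40a1 at 212, 1609 and 532. In HFD_sed 73 of 92 gated macrophages had Cd5l. Cd207 itself was seen in 5 of 9, 48 of 92 and 14 of 33 cells. The cells are named by their gate.

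Markers of other cell types were read as whole lists. Over 7 conventional dendritic cell markers, the summed level was 50.7 to 70.8 CPM in the 3 libraries, with Cd209a at 0 in S and HFD_EXE. Over 6 markers of large peritoneal macrophages it was 16.9 to 31.5 CPM, with Prg4 and Alox15 at 0 in each library. All 5 mesothelial markers were at 0 in each library. The 6 T cell markers summed to 5.63 to 21.3 CPM, the 5 NK markers to 2.81 to 10.1, the 5 B cell markers to 91.0 to 298 and the 7 sinusoidal endothelial markers to 265 to 431. The 7 hepatocyte markers summed to 257 to 667 CPM, the highest in S. The 7 classical monocyte markers summed to 313, 726 and 467 CPM, against 9210, 7714 and 7947 in classical monocytes of the same libraries. The nonclassical monocyte markers summed to 384, 483 and 366 CPM in gated macrophages, against 359, 587 and 298 over all cells. Plasmacytoid dendritic cell markers summed to 263, 142 and 180 CPM, with Siglech at 0 in each library, and neutrophil markers to 70.8, 179 and 166, with Ly6g at 0. The 6 genes listed for Kupffer cells summed to 354, 2926 and 405 CPM in gated macrophages of S, HFD_sed and HFD_EXE, beside 10653, 8641 and 10288 CPM in Kupffer cells.

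Gated macrophages were scarce in S and most frequent in HFD_sed. They made up 0.0848% of the kept cells in S (exact Clopper-Pearson 95% interval 0.0388 to 0.161), 0.831% in HFD_sed (0.671 to 1.02) and 0.315% in HFD_EXE (0.217 to 0.442). The share was 9.80-fold higher in HFD_sed than in S (exact conditional interval 4.95 to 22.1) and 2.64-fold lower in HFD_EXE than in HFD_sed. HFD_EXE over S gave 3.72 (1.74 to 8.84). Of all macrophages, taken as cells with C1qb that passed the other gates, they were 9 of 2034, 92 of 1607 and 33 of 1122, or 0.442%, 5.72% and 2.94%. Of macrophages with at most 1 Clec4f UMI they were 1.71%, 9.37% and 7.42%. The intervals of HFD_sed (7.62 to 11.4) and HFD_EXE (5.16 to 10.3) overlapped on that denominator. When each cell was thinned to 2000 UMIs, which left out 1047, 1568 and 1601 shallower cells, 5 of 9568, 39 of 9500 and 10 of 8866 cells met the rule. All gates were applied anew to the thinned counts, so upper limits, such as that on Clec4f, were easier to meet. The same cells unthinned gave 9, 90 and 33. HFD_sed over S was then 7.86 (3.09 to 25.5), while HFD_EXE over S was 2.16, and its interval of 0.672 to 8.05 includes 1.

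Most gated macrophages met the rule by the smallest margin. In S, 8 cells had 3 markers and 1 had 4. In HFD_sed, 61 cells had 3 markers, 29 had 4 and 2 had all 5. In HFD_EXE, 23 had 3, 9 had 4 and 1 had 5. Just outside the rule, with 2 markers and the same gates, lay 18, 145 and 34 cells. Cells just inside held Cd207 at 457 CPM and Mmp12 at 594 CPM in HFD_sed, and cells just outside at 151 and 65.2. The most frequent sets in HFD_sed were Cd207 with Ms4a7 and Cx3cr1 (16 cells), Mmp12 with Ms4a7 and Cx3cr1 (15), Mmp13 with Ms4a7 and Cx3cr1 (14), and Mmp13 with Cd207, Ms4a7 and Cx3cr1 (11). In HFD_EXE, Mmp12 with Ms4a7 and Cx3cr1 was met in 8 cells and Mmp13 with that pair in 7.

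**Figure D1:**
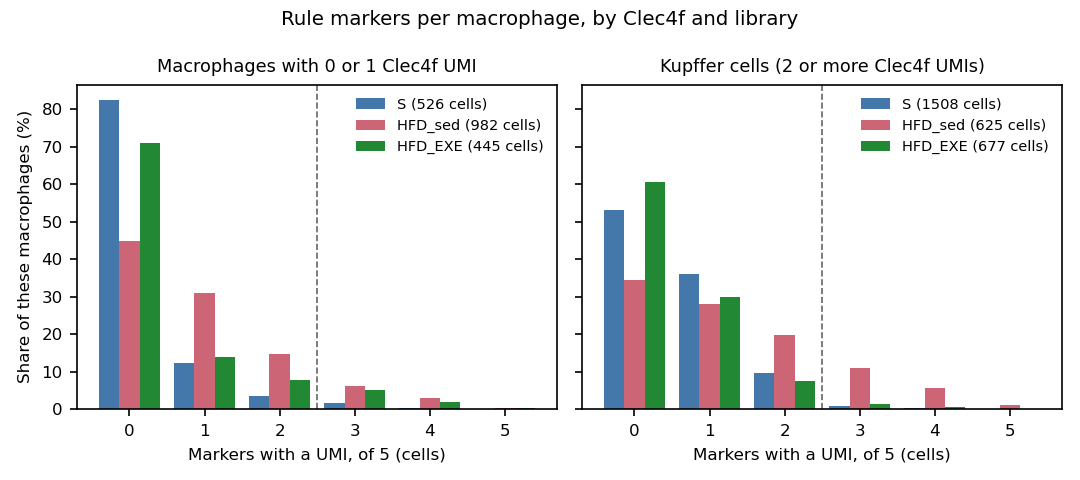
Share of macrophages (vertical axis, percent) by the number of the 5 rule markers with a UMI (horizontal axis), for cells with at most 1 and with at least 2 Clec4f UMIs, in each library. The dashed line marks the 3 markers needed. Right of it, HFD_sed has the tallest bars in both classes, and the Clec4f-positive class of HFD_sed reaches further right than that of S or HFD_EXE.

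The 5 markers differed in level and in how evenly cells shared them. Cx3cr1 stood at a CPM of 1203 (996 to 1439) in S, 561 (519 to 605) in HFD_sed and 532 (459 to 613) in HFD_EXE. It was seen in 9 of 9, 80 of 92 and 29 of 33 cells. Ms4a7 stood at 273, 263 and 391 CPM and was seen in 5, 83 and 31 cells.

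Langerin and the proteases came from fewer cells, some with many transcripts. Cd207 stood at a CPM of 1486 (1255 to 1746) in S, 620.1 (576 to 667) in HFD_sed and 492 (422 to 571) in HFD_EXE. Mmp12 stood at a CPM of 121 (62.7 to 212) in S, 477 (439 to 518) in HFD_sed and 379.9 (319 to 449.6) in HFD_EXE, from 5, 47 and 21 cells. The cell with the most Mmp12 held 126 UMIs in HFD_sed, 22.5% of all Mmp12 UMIs of its gated macrophages. Mmp13 stood at 192, 351 and 107 CPM from 4, 51 and 15 cells, and 78.9% of its UMIs in S came from 1 cell. The level of S for Mmp13 is thus the level of 1 cell.

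Each marker was also read in cells picked by 3 of the other 4 markers. In HFD_sed, Ms4a7 was then seen in 28 of 37 cells (75.7%) and Cx3cr1 in 31 of 43 (72.1%), against 12.5% and 30.0% of macrophages within the same gates that had none of the other 4 markers. Mmp13 was seen in 36.9% against 1.12%, Cd207 in 34.3% against 4.96% and Mmp12 in 30.8% against 5.16%. In B cells of HFD_sed, which serve as a measure of free RNA, the shares were 1.63% to 4.98% over the 5 genes. As a level, Mmp12 was 126 CPM in the picked cells, 39.2 in those with none of the other markers and 12.2 in B cells. The picked cells were deeper, with a median of 12658 UMIs against 3335 and 3079, which raises the chance of any UMI but not the CPM. In S few cells were picked. Mmp12, Cd207 and Ms4a7 were each seen in 1 of 5 there, Mmp13 in 0 of 5 and Cx3cr1 in 1 of 1. In HFD_EXE, Mmp12 was seen in 10 of 22, Mmp13 in 5 of 23 and Cd207 in 7 of 26. Ms4a7 was seen there in 10 of 12 and Cx3cr1 in 9 of 13.

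The markers were not confined to cells without Clec4f. Among Kupffer cells, here macrophages with at least 2 Clec4f UMIs, 3 or more markers were met in 19 of 1508 cells of S (1.26%), 111 of 625 of HFD_sed (17.8%, interval 14.8 to 21.0) and 13 of 677 of HFD_EXE (1.92%). After thinning to 2000 UMIs the counts were 2 of 1954, 31 of 511 and 0 of 685, the last with an exact upper bound of 0.537%. All gates were applied anew to the thinned counts, so these are not the same Kupffer cells. Among cells deep enough to thin, the unthinned counts were 19 of 1284, 109 of 476 and 13 of 519. In HFD_sed, Kupffer cells with 3 markers held Mmp12 at 1054 CPM and Cd207 at 956, above the 477 and 620.1 CPM of gated macrophages. They kept Clec4f at 1879 CPM and Cd5l at 4077. Lymphocytes reached 3 markers far less often: 0.362% of B cells and 0.372% of T cells in HFD_sed. Sinusoidal endothelial cells, taken by Stab2, reached them in 0.283% of cells in S, 1.56% in HFD_sed and 0.227% in HFD_EXE. Without the Clec4f limit, the share in HFD_EXE over S was 1.67.

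**Figure D2:**
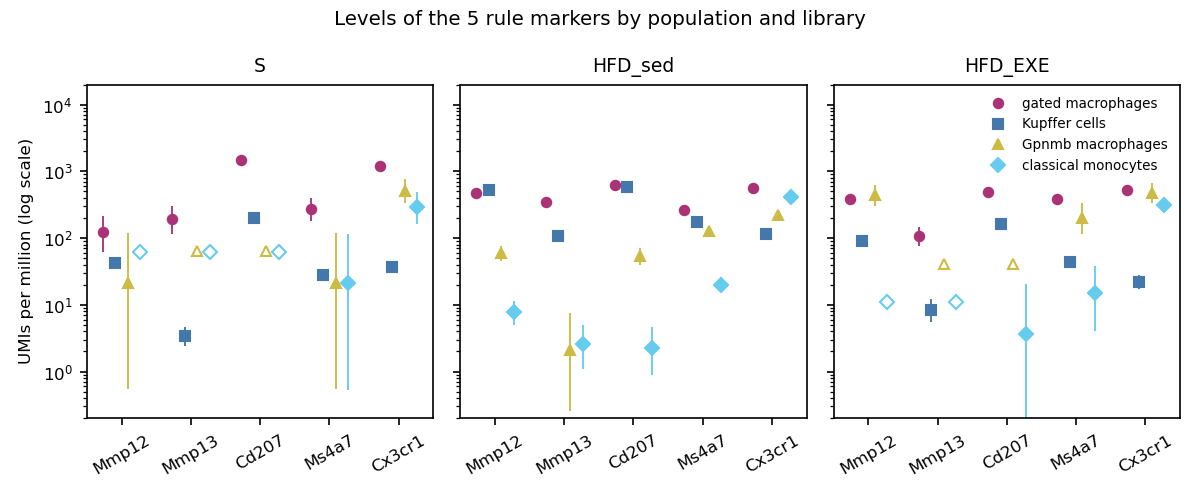
Level of the 5 rule markers (CPM, log axis) in gated macrophages, Kupffer cells, Gpnmb macrophages and classical monocytes of each library. Points are summed cells, bars exact Poisson 95% intervals, and open symbols stand at the level of 3 counts where no UMI was found. Kupffer cells of HFD_sed lie near gated macrophages for Mmp12 and Cd207, and below them for Cx3cr1.

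Against Kupffer cells, gated macrophages had more MHC class II, more of the receptors Ccr2 and Itgax and of TGF-beta-linked Runx3, and far less of the Kupffer programme. Both populations were summed per library and compared with the quasi-likelihood test of edgeR, with the library as a block and the gate genes left out. Of 10231 genes, 328 were higher in gated macrophages (3.21%) and 400 lower (3.91%) at a Benjamini-Hochberg adjusted p under 0.05. Without the library block 26 were higher and 50 lower, and without HFD_EXE 103 and 151. Scaled by totals alone, without TMM factors, 292 were higher and 590 lower, and the median log2 fold change of all genes moved from −0.05 to −0.15. Kupffer cells had a median of 7067, 4957 and 3628 UMIs, and the part of this depth gap in the calls was not tested.

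H2-M2, a non-classical MHC class I gene, stood at 313, 149 and 146 CPM in S, HFD_sed and HFD_EXE against 4.54, 23.6 and 20.9 in Kupffer cells. Its log2 fold change was 3.70 ± 0.35 (SE; edgeR adjusted p = 1.56e-10). Ccr2, the receptor for the monocyte chemokine Ccl2, was at 263, 299 and 447 against 76.4, 55.4 and 45.1 CPM, a log2 fold change of 2.65 ± 0.26 (edgeR adjusted p = 4.64e-10). In each library the 2 populations were set well apart for both genes. Ccr2 had a UMI in 4 of 9, 46 of 92 and 19 of 33 gated macrophages, about as many with it as without.

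Cd34, a sialomucin of progenitors and endothelium, was at 101, 11.9 and 189 against 15.8, 1.003 and 8.37 CPM (log2 fold change 3.76 ± 0.37). Runx3, a transcription factor downstream of TGF-beta, was at 50.5, 47.6 and 332 against 13.4, 17.0 and 10.9 CPM (3.04 ± 0.40). Pmepa1, a feedback inhibitor of TGF-beta signalling, was at 131, 10.2 and 172 against 9.33, 7.77 and 15.5 CPM (2.82 ± 0.40). For Pmepa1 the populations of HFD_sed lay close together, and S and HFD_EXE made the difference. In S 1 cell held 84.6% of its UMIs, and without that cell the level was 24.2 CPM. Others among the 12 were Sh2d1b1, Lat2 and Slamf7, which act in immune receptor signalling, the motor gene Myo5a, the receptor genes Gpr141 and Cd93, and Olfml3, a secreted glycoprotein. Their log2 fold changes ran from 2.37 ± 0.26 for Cd93 to 3.77 ± 0.52 for Sh2d1b1.

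Clec4f separates the 2 populations by construction, and genes that go with it are not independent of the gate. C6, a complement component, was at 0, 5.10 and 8.44 CPM in gated macrophages and 1223, 522 and 934 in Kupffer cells, a log2 fold change of −6.81 ± 0.38 (edgeR adjusted p = 2.55e-17). Cd163, the haemoglobin scavenger receptor, gave −6.31 ± 0.36, the chemokine gene Cxcl13 −6.08 ± 0.42, the scavenger receptor Marco −6.01 ± 0.35 and Timd4 −5.95 ± 0.38. The apolipoprotein gene Apoc1 gave −4.42 ± 0.30 and Fabp7, a fatty acid binding protein, −4.32 ± 0.40. Kcnj16, Pcolce2, Ccdc148, Lepr and Gpt2 also ranked here, on 1 to 3 UMIs in all gated macrophages. Of the 18 genes listed for Kupffer identity, 15 were lower and 0 higher (median log2 fold change −2.80, against −0.05 over all tested genes).

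**Figure D3:**
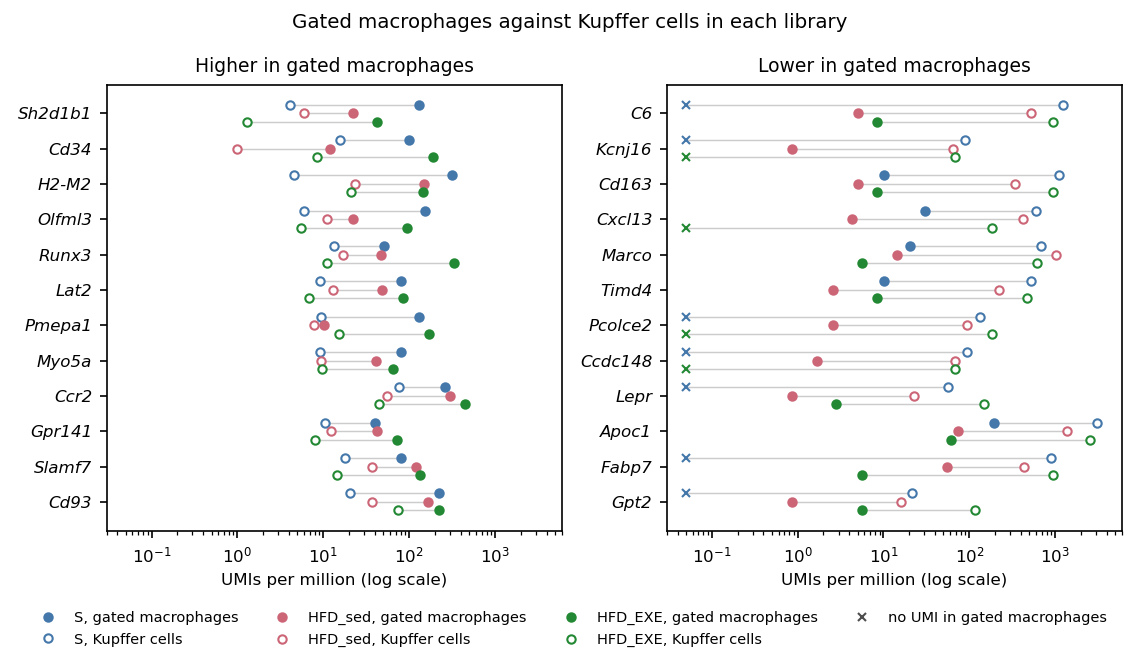
Level of the 12 highest and 12 lowest named genes in gated macrophages (filled) and Kupffer cells (open) of each library, in CPM on a log axis; crosses at the left edge are genes with no UMI in gated macrophages. Each line joins the 2 populations of 1 library, and the filled symbols lie on the same side in all 3 libraries.

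Among the 25 lists, antigen presentation had the largest share of higher genes. Of 12 MHC class II genes tested, 8 were higher and 0 lower, and the median log2 fold change was 1.37. H2-Ab1 was at 8511, 6178 and 8673 CPM against 2724, 3381 and 1820.4 (1.67 ± 0.27; edgeR adjusted p = 3.15e-05). Cd74, the invariant chain, was at 18731, 15389 and 20525 against 7180.1, 8800.1 and 4525 CPM (1.54 ± 0.29). H2-Aa, H2-Eb1, H2-DMa and the class II transactivator gene Ciita were among the others. H2-Ab1 had a UMI in all 134 cells. Of the 8 genes listed for capsular macrophages outside the gate, 4 were higher (Itgax, H2-Ab1, H2-Aa and Cd74), 3 of them the same class II genes, and 0 lower. Itgax, the integrin CD11c, was at 111, 69.8 and 180.1 against 22.0, 36.6 and 19.6 CPM (2.16 ± 0.31). Among 15 core macrophage genes only the lysozyme gene Lyz2 passed the test (0.90 ± 0.25).

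Genes of lipid-associated macrophages did not move as a block. Of 18 tested, 6 were higher, among them Gpnmb, Trem2 and Apoe, and 5 lower, among them Lpl, Ctsd and Cd36, with a median of −0.03. Trem2, a lipid-sensing receptor, was at 536, 154 and 194 CPM against 38.5, 80.5 and 77.6 (2.01 ± 0.30; edgeR adjusted p = 5.73e-06). Apoe, a lipid carrier, was at 41242, 28658 and 22132 against 14463, 19344 and 11574 CPM (1.09 ± 0.28). Lpl, lipoprotein lipase, went the other way, at 91.0, 2088 and 199.8 against 1160.4, 2774 and 1914 CPM (−2.12 ± 0.37). The gap for Lpl was wide in S and HFD_EXE and narrow in HFD_sed.

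Of 19 inflammatory cytokine and chemokine genes tested, 7 were higher, among them Tnf, Ccl4, Cxcl2 and Cxcl10. Another 3 were lower (Il6, Ccl24 and Cxcl13), and the rest did not pass the test. Ccl4, a chemokine for T cells and monocytes, was at 1910.5, 1333 and 1860.1 CPM against 423, 786 and 273 (1.98 ± 0.28; edgeR adjusted p = 1.80e-06), and Tnf at 111, 98.7 and 98.5 against 31.6, 43.6 and 19.3 (1.79 ± 0.28). Beside them, 8 of 17 immediate early and heat shock genes were higher (among them Fos, Jun, Egr1, Atf3 and Hspa1a) and Klf2 lower. Such genes respond to tissue dissociation, and their part in the inflammatory genes was not tested.

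Of 11 TGF-beta receptor and response genes, Tgfbr1 (263, 182 and 442 against 67.2, 129.6 and 88.2 CPM; 1.64 ± 0.27) and Runx3 were higher and 0 lower. Of 8 tested microglia-type genes, Tmem119, P2ry6, Olfml3 and Trem2 were higher. Siglech was lower, with 0 UMIs in gated macrophages. Olfml3 was at 152, 22.1 and 95.7 CPM against 5.92, 11.03 and 5.47 in Kupffer cells. Among matrix proteases outside the gate, Mmp14, a membrane-bound collagenase, was at 152, 192 and 95.7 against 30.6, 99.8 and 34.8 CPM (1.51 ± 0.26).

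Of 15 scavenging and efferocytosis genes, 7 were lower and 0 higher, among them Mrc1, Msr1, Marco and Cd36. Of 10 heme and iron genes, Hmox1, Slc40a1 and Cd163 were lower. Slc40a1, the iron exporter ferroportin, was at 212, 1609 and 532 against 3238, 3263 and 2247 CPM (−2.07 ± 0.32). Of 11 cell cycle genes, Mki67, Top2a, Birc5 and Stmn1 were higher. That result rests on few cells, since 87.5% of the Top2a UMIs of S and 90.0% of those of HFD_EXE came from 1 cell each.

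Gated macrophages were also set against classical monocytes, taken as cells with Ly6c2, Ccr2 and Lyz2 and without C1qb, Clec4f, Flt3 and Siglech. The limits on Cd3e, Cd79a and Stab2 were those of the gated macrophages. There were 6, 359 and 31 such cells in S, HFD_sed and HFD_EXE, and the level of S rests on few. Of 4591 genes tested the same way, 359 were higher in gated macrophages (7.82%) and 268 lower (5.84%). Without S, 511 of 7547 were higher and 412 lower.

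C1qa, a subunit of complement C1q, was at 3487, 3733 and 3608 CPM in gated macrophages of S, HFD_sed and HFD_EXE and 41.9, 30.4 and 22.2 in monocytes (7.08 ± 0.22; edgeR adjusted p = 1.41e-07). Its partner C1qb was part of both gates, so C1qa is not independent of them. Mertk, the receptor for dying cells, was at 263, 286 and 259 against 0, 8.31 and 14.8 CPM (4.99 ± 0.37). The platelet factor gene Pf4 gave 7.47 ± 0.45, the adhesion gene Cadm1 6.45 ± 0.36, Cd72 5.95 ± 0.48, the prostaglandin synthase genes Hpgds and Ptgs1 5.47 ± 0.42 and 4.97 ± 0.35, and Slc40a1 4.90 ± 0.59. Of 14 core macrophage genes 9 were higher and 0 lower, of 9 MHC class II genes 7 and 0, and of 9 heme and iron genes all 9.

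Of the 10 tested genes of the Kupffer list, 9 were higher than in monocytes and 0 lower, among them Vsig4, Cd5l and Clec1b. The monocytes were taken without C1qb and Clec4f, so genes that go with these are not independent of the gates. Vsig4, a complement receptor of resident macrophages, was at 80.9, 251 and 92.9 CPM against 20.9, 6.39 and 14.8 (4.76 ± 0.53) and far below the 2536, 1449.6 and 2159.9 of Kupffer cells. In gated macrophages of S and HFD_EXE, Cd5l was at 50.5 and 225 CPM, and B cells held 575 and 107. S thus lay below B cells, and HFD_EXE did too, at 27.1 CPM, without 1 cell, so neither level is read as expression of all cells. Among the lower genes, S100a4 was at 0, 134 and 22.5 against 1674, 2217 and 2025 CPM (−5.10 ± 0.51; edgeR adjusted p = 2.12e-04) and S100a6 at 30.3, 226 and 76.0 against 3139.7, 2736 and 2449.5 (−4.50 ± 0.39). Plac8 gave −5.42 ± 0.65, Chil3 −5.37 ± 0.61, Fn1 −4.62 ± 0.45 and F13a1 −4.57 ± 0.47. Of 10 genes listed for recruited cells, 8 were lower and 0 higher.

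Another population of HFD_sed shared the low Clec4f but not the gate. It held 93 macrophages with 2 of Gpnmb, Trem2 and Spp1, called Gpnmb macrophages, beside 92 gated ones, while S and HFD_EXE had 3 and 8. With 1 library there was no test. A gene was measured at 20 or more UMIs, and called higher or lower where the ratio reached 1.5 and its exact conditional interval excluded 1. Of 8070 genes, 722 were higher in gated macrophages (8.95%) and 635 lower (7.87%).

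Cd5l, a secreted protein of resident macrophages, was at 2250.0 against 441 CPM, a ratio of 5.10 (4.60 to 5.66). Slc40a1 gave 4.37 (3.90 to 4.91), the adhesion gene Vcam1 4.41 (3.65 to 5.36), Cd72 6.09 (4.45 to 8.51) and Cadm1 5.51 (4.11 to 7.52). Adrb1, the beta-1 adrenergic receptor, gave 8.20 (4.63 to 15.8). S100a4 was at 134 against 1098 CPM, 8.17-fold lower, and Fabp5, a fatty acid carrier, at 202 against 1087, 5.39-fold lower. Saa3, an acute phase gene, had 0 UMIs in gated macrophages and 176 in Gpnmb macrophages. With the 0 set to a floor of 3 counts it was 72.1-fold lower, and the exact upper bound of the ratio was 0.0172. F13a1, Fn1, Slpi and the coagulation factor gene F10 were lower too.

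Between libraries, genes listed for Kupffer cells and lipid-associated macrophages were more often higher than lower in gated macrophages of HFD_sed, against both S and HFD_EXE. HFD_EXE over HFD_sed gave 503 of 7282 measured genes higher (6.91%) and 605 lower (8.31%), and with TMM scaling 420 and 748. HFD_sed over S gave 350 of 6726 higher (5.2%) and 281 lower (4.18%), but with TMM scaling 651 and 160. HFD_EXE over S gave 232 of 3537 higher (6.56%) and 176 lower (4.98%), and with TMM scaling 372 and 125. TMM moved the log2 ratio of every gene by 0.25 for HFD_sed over S, −0.08 for HFD_EXE over HFD_sed and 0.17 for HFD_EXE over S. The comparisons share libraries, so their values are given side by side.

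Lpl stood at a CPM of 91.0 (41.6 to 173) in S, 2088 (2007 to 2173) in HFD_sed and 199.8 (156 to 252) in HFD_EXE. It was seen in 4 of 9, 79 of 92 and 13 of 33 cells, so most cells of HFD_sed carried it and fewer of the others. HFD_EXE was 10.5-fold lower than HFD_sed (ratio 0.0957 (0.0745 to 0.121)). B cells held 123, 93.4 and 27.7 CPM, so the level of S lay at that background. In Kupffer cells Lpl was at 1160.4, 2774 and 1914 CPM. The gap between HFD_sed and HFD_EXE was narrower there.

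Cd5l stood at a CPM of 50.5 (16.4 to 118) in S, 2250.0 (2165 to 2337) in HFD_sed and 225 (179 to 280.2) in HFD_EXE, from 3, 73 and 9 cells. In HFD_EXE 88.8% of its UMIs came from 1 cell, and without that cell the level was 27.1 CPM. B cells of HFD_sed held 193 CPM, far below the gated macrophages of that library. In Kupffer cells the 3 libraries were alike for Cd5l, at 5627, 5013 and 5742 CPM. Nr1h3, the lipid-sensing nuclear receptor LXR-alpha, was at 30.3, 362 and 84.4 CPM, and Slc40a1 at 212, 1609 and 532.

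Over lists, of 14 measured Kupffer genes 10 were higher and 0 lower in HFD_sed than in S, and 0 higher and 13 lower in HFD_EXE than in HFD_sed (median log2 ratio −1.55, against −0.04 over all measured genes). Of 18 lipid-associated genes, 11 were higher and 1 lower in HFD_sed than in S. The lower one was Trem2, at 536, 154 and 194 CPM. In HFD_EXE 2 were higher (Cd9 and Itgax) and 9 lower than in HFD_sed. Gpnmb, a lysosomal glycoprotein of lipid-laden macrophages, was at 10.1, 192 and 16.9 CPM, from 1 UMI in S and 6 in HFD_EXE. Of 14 glycolysis and hypoxia genes, 0 were higher and 8 lower in HFD_EXE than in HFD_sed (among them Hk2, Pgk1, Ldha, Eno1, Pkm and Gapdh). Plac8, a monocyte gene, was at 10.1, 236 and 14.1 CPM, seen in 37 of 92 cells of HFD_sed. Chil3 was at 0, 72.3 and 2.81 CPM, with 83.5% of its HFD_sed UMIs in 1 cell and 1 UMI in HFD_EXE. Ccr2, another gene of monocytes, was highest in HFD_EXE, at 263, 299 and 447 CPM. The summed monocyte and Kupffer markers given above were both highest in HFD_sed, and the part of admixed cells in these differences was not tested.

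Cxcl9, an interferon-induced chemokine for T cells, was at 10.1, 645 and 2.81 CPM, with 1 UMI in each of S and HFD_EXE and 758 in HFD_sed. HFD_EXE over HFD_sed was 0.00436 (1.10e-04 to 0.0244). In HFD_sed these UMIs came from 32 of 92 cells. Il1rn, the interleukin 1 receptor antagonist, was at 10.1, 333 and 11.3 CPM, with 36.7% of the HFD_sed UMIs in 1 cell. Fpr2, a formyl peptide receptor, was at 10.1, 162 and 11.3 CPM and seen in 53 of 92 cells of HFD_sed but 3 of 33 of HFD_EXE. Cxcl3, Hbegf, Ccl8 and Folr2 had 0 UMIs in HFD_EXE and 66.4, 65.5, 61.2 and 53.6 CPM in HFD_sed. With each 0 set to a floor of 3 counts, HFD_EXE was 7.86-, 7.76-, 7.26- and 6.35-fold lower. The exact upper bounds of HFD_EXE over HFD_sed were 0.160, 0.162, 0.174 and 0.199. Cxcl3 and Ccl8 came from 5 and 6 cells of HFD_sed, and Hbegf and Folr2 from 29 and 24. Clu, also ranked lower, had 57.3% of its HFD_sed UMIs in 1 cell.

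**Figure D4:**
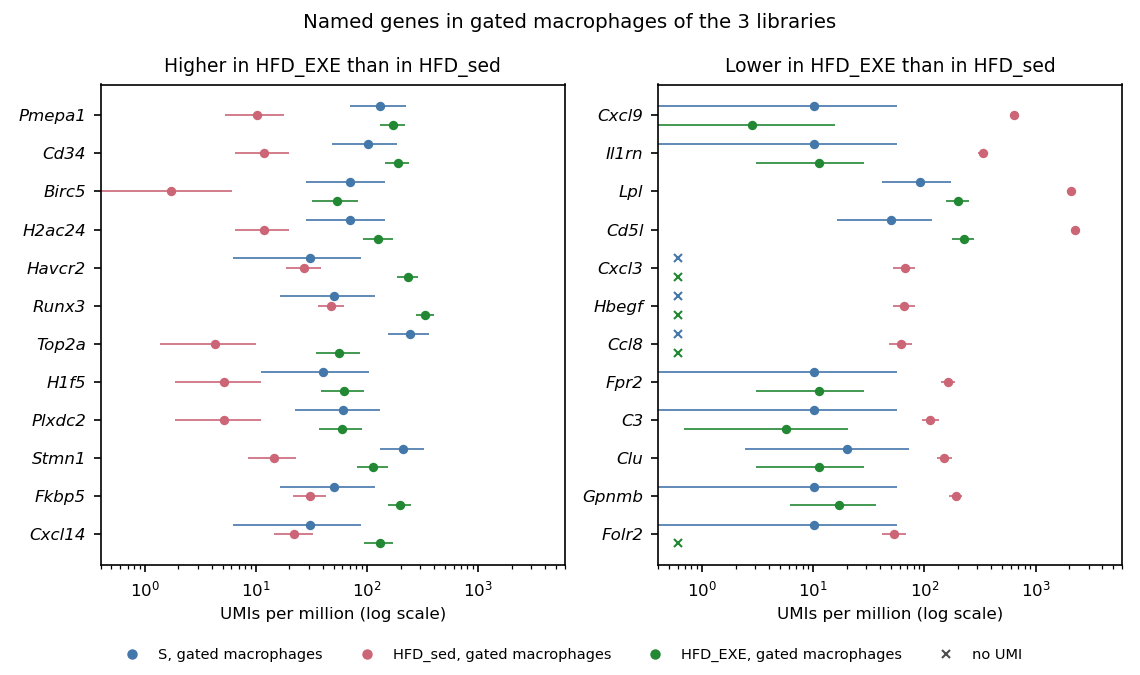
Level of named genes that were higher (left) or lower (right) in gated macrophages of HFD_EXE than of HFD_sed, in CPM on a log axis, with S beside them. Bars are exact Poisson 95% intervals, and crosses mark no UMI. Most lower genes are high in HFD_sed alone. Pmepa1, Cd34, Plxdc2, Birc5, Top2a, Stmn1, H1f5 and H2ac24 are low in HFD_sed and higher in S and HFD_EXE. For Pmepa1, Birc5, Top2a, Stmn1 and H2ac24, most UMIs of S come from 1 cell. In HFD_EXE the same holds for Birc5, Top2a, Stmn1, H1f5 and H2ac24.

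Of 11 measured TGF-beta genes, 6 were higher in HFD_EXE than in HFD_sed (Tgfbr1, Tgfbr2, Smad4, Ski, Skil and Runx3) and 0 lower. Their median log2 ratio was 0.73. Runx3 stood at a CPM of 50.5 (16.4 to 118) in S, 47.6 (36.0 to 61.9) in HFD_sed and 332 (275 to 398) in HFD_EXE, and was seen in 28 of 33 cells of HFD_EXE against 24 of 92 of HFD_sed. HFD_EXE over HFD_sed was 6.97 (5.03 to 9.76). Over all cells Runx3 was at 112 CPM in HFD_sed and 29.0 in HFD_EXE, the opposite order. The T and NK cell markers summed to 5.63 and 2.81 CPM in gated macrophages of HFD_EXE. The part of admixed cells or free RNA in the Runx3 levels was not tested. Tgfbr1, the type I receptor, was at 263, 182 and 442 CPM, and HFD_EXE over HFD_sed was 2.43 (1.96 to 2.996). Pmepa1 stood at 131, 10.2 and 172 CPM. In S 84.6% of its UMIs came from 1 cell, while in HFD_EXE 18 of 33 cells had it, and HFD_EXE over HFD_sed was 16.8 (8.96 to 34.3).

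Other genes were also higher in HFD_EXE than in HFD_sed. Cd34 stood at a CPM of 101 (48.5 to 186) in S, 11.9 (6.51 to 19.98) in HFD_sed and 189 (146 to 239) in HFD_EXE, from 5 of 9, 11 of 92 and 23 of 33 cells. Cd34 is also an endothelial gene, and the sinusoidal endothelial markers summed to 303, 265 and 431 CPM in the same cells. Their part in the Cd34 levels was not tested. Havcr2, the inhibitory receptor TIM-3, was at 30.3, 27.2 and 234 CPM and seen in 27 of 33 cells of HFD_EXE but 22 of 92 of HFD_sed. Fkbp5, a glucocorticoid-induced co-chaperone, was at 50.5, 30.6 and 197 CPM. Over all cells it was at 167 CPM in HFD_EXE and 42.9 in HFD_sed, and in Kupffer cells at 202 and 43.4. The part of this shift in the gated macrophages was not tested. Cxcl14 was at 30.3, 22.1 and 129 CPM, seen in 14 of 33 cells of HFD_EXE, and the plexin-domain gene Plxdc2 at 60.7, 5.10 and 59.1, seen in 8 of 33. Birc5, H2ac24, Top2a, H1f5 and Stmn1 ranked here as well. In HFD_EXE 89.5% of the Birc5, 93.3% of the H2ac24 and 95.5% of the H1f5 UMIs came from 1 cell. For Top2a and Stmn1, 1 cell held 90.0% and 82.5%. Without the cell holding most of the gene's UMIs in each library, H2ac24 and H1f5 had a log2 ratio of −0.073 and −0.50.

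Of 9 measured heme and iron genes, 3 were higher in HFD_EXE than in HFD_sed (Hmox1, Gclm and Srxn1) and 2 lower (Slc40a1 and Blvrb). Hmox1, heme oxygenase, stood at a CPM of 80.9 (34.9 to 159) in S, 726 (679 to 777) in HFD_sed and 1370.4 (1251 to 1498) in HFD_EXE, a ratio of HFD_EXE over HFD_sed of 1.89 (1.68 to 2.11) and of HFD_EXE over S of 16.9 (8.53 to 39.5). In Kupffer cells Hmox1 was at 1359, 2094 and 2738 CPM, also highest in HFD_EXE. Slc7a11, the cystine transporter, was at 0, 86.8 and 228 CPM with 0 UMIs in S, and HFD_EXE over HFD_sed was 2.63 (1.94 to 3.55). Srxn1 and Gclm serve the peroxiredoxin and glutathione systems. The neutrophil chemokine gene Cxcl2 was at 222, 634 and 1694 CPM, and Ccl2 had the reverse order, at 293, 91.9 and 16.9. In S 68.2% of the Cxcl2 and 62.1% of the Ccl2 UMIs came from 1 cell.

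In HFD_sed over S and in HFD_EXE over HFD_sed, MHC class II genes were called lower or not at all. H2-Ab1 stood at a CPM of 8511 (7946 to 9106) in S, 6178 (6037 to 6322) in HFD_sed and 8673 (8369 to 8985) in HFD_EXE. Of 11 measured class II genes, 0 were higher and 3 lower (H2-Eb1, H2-DMa and Ciita) in HFD_sed than in S. Their median log2 ratio was −0.46, against 0.05 over all measured genes, of which 4.18% were lower. In HFD_EXE 0 were higher and 1 (Cd40) lower than in HFD_sed, with a median log2 ratio of 0.42 against −0.04 over all genes. Among core macrophage genes, Csf1r, C1qa and Mertk had ratios of 0.941 (0.848 to 1.04), 0.966 (0.907 to 1.03) and 0.906 (0.711 to 1.14) in HFD_EXE over HFD_sed. Cell cycle genes were lower in HFD_sed than in S (4 of 8 measured, 0 higher), but S holds 9 cells and 85.7% of its Mki67 UMIs were in 1 of them.

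Within HFD_sed, gated macrophages with Mmp12 and no Cd207 UMI differed in listed genes from those with Cd207 and no Mmp12. There were 30 of the first and 31 of the second, at a median of 12790.0 and 12561 UMIs. Another 17 gated macrophages had both genes and 14 had neither. Many of the 30 held a single Mmp12 UMI, and some of the 31 a single Cd207 UMI. Of B cells of this library, 4.98% had a UMI of Mmp12 and 2.81% one of Cd207. The split was chosen after values had been seen. Of 5046 measured genes, 289 were higher in the Mmp12 cells (5.73%) and 214 lower (4.24%). Of 18 lipid-associated genes 11 were higher with Mmp12 and 2 lower (median log2 ratio 0.88, against −0.03 over all genes). Of 11 glycolysis and hypoxia genes 7 were higher and 0 lower.

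Fth1, the ferritin heavy chain, was at 14631 against 5141 CPM, a ratio of 2.85 (2.70 to 2.997). Lpl was at 2659 against 1106 CPM, a ratio of 2.40 (2.14 to 2.70). Lgals3, galectin-3, was at 1223 against 409.9 CPM, a ratio of 2.98 (2.48 to 3.60). Each was thus well above its counting error in the Mmp12 cells. Gpnmb was at 346 against 61.9 CPM, a ratio of 5.60 (3.60 to 9.05), and 12 of 30 against 10 of 31 cells had it. A single Mmp12 cell, with 1 Mmp12 UMI, held 48 of the 226 Gpnmb UMIs of all gated macrophages of HFD_sed. Cd9, a tetraspanin of lipid-associated macrophages, was at 265 against 41.3 CPM, a ratio of 6.43 (3.77 to 11.7). Fabp5 was at 406 against 87.7 CPM, a ratio of 4.63 (3.17 to 6.93), with 40.0% of the UMIs of the Mmp12 cells in 1 cell. Slc7a11 was at 192 against 5.16 CPM, a ratio of 37.3 (9.94 to 314), seen in 13 of 30 cells against 1 of 31 with 2 UMIs.

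Of 12 measured matrix proteases and inhibitors, 4 were higher with Mmp12 (Mmp14, Mmp19, Plau and Ctsz) and 0 lower. Mmp14 was at 287 against 129 CPM, a ratio of 2.22 (1.57 to 3.18), and 51.4% of the Mmp19 UMIs were in 1 cell. Of 11 matrix and growth factors, 3 were higher (Tgm2, Pdgfa and Pdgfb) and 2 lower (Fn1 and Thbs1). The class II gene H2-Ab1 was at 6190.0 against 6477 CPM, a ratio of 0.956 (0.903 to 1.01), and Cd5l at 1891 against 2148 CPM, a ratio of 0.881 (0.795 to 0.975). Both of these genes, of presenting and resident macrophages, were called neither higher nor lower. Spp1, Chil3 and Ly6c2 were lower with Mmp12, but 1 of the Cd207 cells held 96.8%, 89.9% and 94.1% of their UMIs. In HFD_EXE the split left 12 and 5 cells, and 2 of 12 measured lipid-associated genes were higher (Lgals3 and Lpl) and 2 lower (Ctsd and Ctsb), with 7.07% of 1654 genes higher and 9.01% lower.

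**Figure D5:**
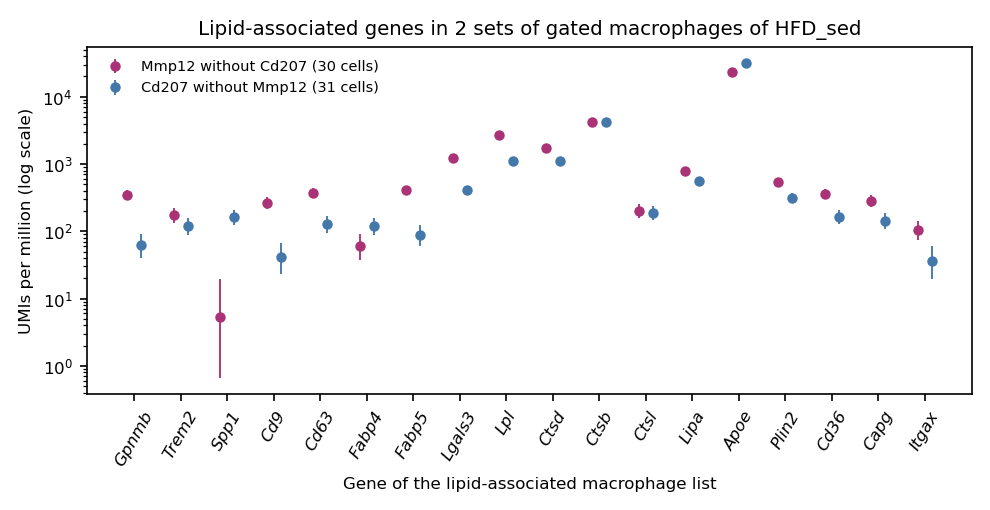
Level of the lipid-associated genes (CPM, log axis) in gated macrophages of HFD_sed with Mmp12 and no Cd207 (30 cells) and with Cd207 and no Mmp12 (31 cells); bars are exact Poisson 95% intervals. Gpnmb, Cd9, Fabp5, Lpl and Lgals3 are higher with Mmp12, and Spp1 and Fabp4 with Cd207.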

How the data were processed

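Single-cell libraries S, HFD_sed and HFD_EXE were analysed, with 1 library in each group. The deposited matrices hold raw UMI counts, made with Cell Ranger 6.1.2 on GRCm39, per the submitters' processing notes. Nothing says which libraries came from separate animals beyond their titles. A barcode was kept from 500 UMIs and 300 genes upward, if mitochondrial genes gave less than 15% of its UMIs, with scipy 1.17.1 and scanpy 1.11.5. Doublets were marked with Scrublet at a score of 0.2188, halfway between the cuts that the tool chose for S and for HFD_sed, and kept.

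Members and lists were chosen with earlier results of these data known. Counts summed per library and population were tested with edgeR 4.0.16 (TMM, filterByExpr, quasi-likelihood, library as a block), leaving out gate genes. The design asked for 20 cells in each library. S held 9 gated macrophages, so a minimum of 5 was set after the counts were seen, and Gpnmb macrophages were described without a test. Counts were also simulated at the totals of the Kupffer comparison, with 10239 genes and the same dispersion for every gene. There 6 of 67, 36 of 67 and 56 of 66 genes changed by a log2 of 1, 2 and 3 were recovered. The simulation held no spread from single cells with most UMIs of a gene.

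Between libraries, and between sets of cells within a library, CPM of summed counts carry exact Poisson 95% intervals and ratios exact conditional ones. Named genes were up to 12 in each direction, by fold change (edgeR) or by the interval bound nearest to no change (ratios), at 50 CPM or more, plus up to 6 from a list in each comparison. Genes were compared between populations, never by level with each other. Alternatives were DESeq2 1.42.0, other scalings and filters, other gates, and each library left out.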

Additional observations from a re-analysis of the deposited data

Results flagged for a closer look

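For 8 genes of the lists, gated macrophages lay above Kupffer cells in 1 library and below them in another. The log2 ratios of gated macrophages over Kupffer cells carry exact conditional 95% intervals for counting error, and the difference between libraries was not tested. All 8 were found by searching the lists, and 7 were higher than in Kupffer cells in HFD_sed.

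The complement gene C3 had a log2 ratio of 0.63 (0.32 to 0.93) in HFD_sed, −4.71 in S and −3.17 in HFD_EXE, from 1 and 2 UMIs in the last named pair. Cxcl9 had 0.82 (0.69 to 0.95) in HFD_sed, −3.40 in S and −5.16 in HFD_EXE, from 1 UMI in each of S and HFD_EXE. The monocyte gene Plac8 had 0.83 (0.61 to 1.04) in HFD_sed, −5.24 in S from 1 UMI, and −4.45 (−6.08 to −3.23) in HFD_EXE. Fabp5 had 1.56 (1.30 to 1.82) in HFD_sed and −0.84 (−1.74 to −0.06) in HFD_EXE. The anti-inflammatory cytokine gene Il10 had 0.65 (0.16 to 1.12) in HFD_sed and −3.66 (−5.55 to −2.30) in HFD_EXE. S100a4 had 0.68 (0.40 to 0.96) in HFD_sed and −1.24 (−2.47 to −0.23) in HFD_EXE. S100a6 had 0.73 (0.51 to 0.94) in HFD_sed and −2.01 (−4.29 to −0.46) in S. The chemokine gene Ccl7 had the other order, with 2.33 (0.68 to 3.59) in S and −0.93 (−1.55 to −0.36) in HFD_sed.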

How the results depend on the processing

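No paired analysis was possible because the groups share fewer than 2 replicate numbers; the block in the tests is the library that both populations came from. Without that replicate block, 26 genes were higher than in Kupffer cells and 50 lower, and 34 of 108 values of named and listed genes still passed. Against monocytes 92 of 108 did. DESeq2 gave 189 higher and 168 lower than in Kupffer cells, and 212 and 152 against monocytes, where no filter gave 563 and 515. With each library left out in turn, the counts ran from 103 to 363 higher and 151 to 490 lower against Kupffer cells, and from 254 to 511 and 184 to 412 against monocytes. Between libraries, HFD_sed over S gave 651 and 160 with TMM scaling, 626 and 488 with 2 of 5 markers, and 170 lower at 50 UMIs. HFD_EXE over HFD_sed gave 238 and 283 with 4 of 5 markers. HFD_EXE over S gave 372 higher with TMM, 147 and 73 at 50 UMIs, 415 and 335 with 2 of 5 markers, and 116 lower with Clec4f at 0. The share of HFD_sed over S was 29.7 with 4 of 5 markers and 41.2 without Cx3cr1, and that of HFD_EXE over S 10.1 and 13.2. Without a limit on Clec4f, HFD_EXE over S was 1.67 and HFD_EXE over HFD_sed 0.240. For HFD_EXE over S, Top2a and Mki67 had log2 ratios of 1.06 and 0.83 with Clec4f at 0. For HFD_EXE over HFD_sed, H2ac24 and H1f5 had −0.073 and −0.50 without the cell with most of their UMIs in each library, an alternative chosen after seeing the data. The cause of these shifts was not tested. The other 88 recomputed counts and shares moved by less than 1.5 times or their interval. With 4 of 5 markers S had 1 cell, so no test across genes and no comparison of gene levels with S was run, and no alternative was run for Gpnmb macrophages. The 9 cells of S limit every value of that library.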

Other observations

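Some genes not described above differed between HFD_EXE and S among gated macrophages. Cytip, a cytoskeletal regulator of leukocyte adhesion, had 0 UMIs in S and was seen in 33 of 33 cells of HFD_EXE. Against a floor of 3 counts in S it was 14.1-fold higher there, with an exact lower bound of 11.3. In Kupffer cells Cytip was at 566 CPM in HFD_EXE and 64.0 in S. Txnrd1, a thioredoxin reductase, and the cell cycle inhibitor gene Cdkn1a were also higher in HFD_EXE. Over all cells Cdkn1a was at 417 CPM in HFD_EXE and 59.9 in S, and in Kupffer cells Txnrd1 was at 455 and 235. The part of these shifts in the gated macrophages was not tested. Of 9 measured heme and iron genes, 5 were called higher and 0 lower. The list's median log2 ratio was 1.13, and that of all measured genes 0.11.

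Against Kupffer cells, 5 of 14 chemokine and growth factor receptors were higher and 0 lower: Ccr1, Ccr2, Cxcr4, Itgax and Itga4. Cxcr4, the receptor for Cxcl12, was at 30.3, 155 and 234 CPM in S, HFD_sed and HFD_EXE against 34.9, 119 and 64.4 in Kupffer cells (1.04 ± 0.28; edgeR adjusted p = 0.0135), with the populations of S close together. Of 16 interferon response genes, Isg15, Oasl2 and Ifi27l2a were higher and 0 lower. Isg15 was at 182, 147 and 166 against 33.5, 106 and 43.2 CPM (1.54 ± 0.28).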
